A study of Mus musculus with 6 samples.

Results

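The 10 genes described here are widely used to recognise cardiac fibroblasts: Thy1, Pdgfra, Pdgfrb, Tcf21, Dcn, Lum, Ddr2, Dpt, Fap and S100a4. They were taken as a list of symbols that leaves out the collagens, and all 10 were found among the 32245 gene symbols of the count files. The RNA came from primary heart cells of neonatal wild-type mice labelled as cardiomyocytes, and polyadenylated transcripts were sequenced in 6 libraries. There were 2 libraries from cells given BMP2 together with dorsomorphin (BMP2+DM), 2 from cells given BMP2 alone and 2 from cells given phosphate-buffered saline (PBS). BMP2 is a secreted growth factor that signals through receptor kinases and SMAD proteins, and dorsomorphin is a small molecule that blocks BMP receptor kinases and also inhibits AMP-activated protein kinase. No group received dorsomorphin alone, so the agent was only tested in the presence of BMP2. Dose, duration, strain and age in days were not given in the sources used here, nor is it stated whether the replicates were separate cultures or animals. The p-values therefore measure only the spread between these libraries, which may be technical.

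Fibroblasts are the main matrix-producing cells of the heart and mostly descend from the epicardium, with Tcf21 as a transcription factor of that lineage. They carry the receptors for platelet-derived growth factor (PDGF), which drive growth and survival of mesenchymal cells, and they sense collagen through Ddr2. They secrete Dcn, Lum and Dpt, which bind collagen and shape its fibrils, and activated fibroblasts can switch on the surface protease Fap. Preparations of newborn heart cells enriched for cardiomyocytes usually retain some fibroblasts. Several of the genes are also expressed elsewhere, for example Pdgfrb in pericytes, S100a4 in leukocytes and Thy1 in neurons and T cells.

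RefSeq promoter sequences on build GRCm38.p6, which is mm10, were at hand for 5 of the 10 genes. Shown are those of S100a4 and Pdgfra, which were lower after BMP2 and lower again with dorsomorphin, and of Dpt, which was higher after BMP2. Each is the stretch upstream of the transcription start on the plus strand, without annotated exon bases, at chr3:90603520-90603769 for S100a4, chr5:75152001-75152250 for Pdgfra and chr1:164796413-164796643 for Dpt. Capitals mark TATA boxes (TATAAA) and E-boxes (CANNTG), the letters that basic helix-loop-helix factors such as Tcf21 recognise.
S100a4: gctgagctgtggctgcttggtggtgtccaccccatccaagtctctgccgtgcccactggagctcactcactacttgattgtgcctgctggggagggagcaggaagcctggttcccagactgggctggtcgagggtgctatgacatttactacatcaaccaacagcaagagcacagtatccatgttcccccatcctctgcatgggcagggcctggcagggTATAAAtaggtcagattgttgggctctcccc
Pdgfra: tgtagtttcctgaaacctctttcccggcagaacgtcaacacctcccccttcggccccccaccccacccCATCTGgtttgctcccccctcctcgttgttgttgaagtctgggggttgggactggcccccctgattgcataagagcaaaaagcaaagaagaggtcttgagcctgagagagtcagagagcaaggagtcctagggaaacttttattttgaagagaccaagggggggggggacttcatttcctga
Dpt: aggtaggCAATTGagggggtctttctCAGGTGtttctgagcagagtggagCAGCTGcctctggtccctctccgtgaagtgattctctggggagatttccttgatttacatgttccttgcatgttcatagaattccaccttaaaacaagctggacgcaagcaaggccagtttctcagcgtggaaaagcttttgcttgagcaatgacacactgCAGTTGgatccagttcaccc
Over the 250 bases upstream of the start, the S100a4 window held 1 TATA box, beginning 31 bases before the start, and no E-box. The Pdgfra window held 1 E-box and no TATA box. The Dpt window held 6 E-boxes, 4 of them in the part printed, and no TATA box. It ends at the RefSeq start, and 19 of its bases are annotated as exon. The E-boxes not printed reached into those bases or lay within them. Of 32851 mouse promoter windows of the same length, 12.4% had at least 1 TATA box and 66.2% at least 1 E-box, counting both strands. How many windows held 6 E-boxes was not counted. None of the 3 windows had the BMP-SMAD element GGCGCC (in 9.59% of windows), the SMAD element GTCTAGAC (0.167%) or the TCF/LEF element CTTTGAT (3.21%). Only these exact elements were searched for, so their absence says nothing of shorter or variant SMAD sites. The letters describe the sequence and show no binding.

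Between 10106667 and 14366042 counts fell on genes in a library, and the 10 genes together took 0.111% to 0.140% of them. All 10 cardiomyocyte markers were detected, with a summed level of 24147 to 30179 CPM (counts divided by library size on the usual CPM scale) per library, against 1111 to 1440 CPM for the 10 fibroblast genes. All 10 fibroblast genes were detected in every library and passed the filter on low counts. Fap was near the lower limit, with 15 to 37 counts per library, and the other 9 had 406 to 3736. The libraries PBS 1 and BMP2 1 stood apart, with 1.31% and 2.10% of gene counts on ribosomal-repeat models, against 0.0702% to 0.0928% in the other 4. In bulk RNA, fewer fibroblasts and less of a transcript per fibroblast cannot be told apart.

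BMP2 was followed by lower levels of part of the fibroblast genes and not of others. Against PBS, 4 of the 10 fell (Thy1, S100a4, Pdgfra and Dcn), Dpt rose, and 5 did not pass the test (edgeR quasi-likelihood test, Benjamini-Hochberg adjustment over 14378 genes, threshold 0.05). Of all tested genes, 9.29% were called lower and 6.55% higher, 15.8% in either direction. The median log2 fold change was -0.15 over the 10 genes and 0.00441 over all tested genes. When dorsomorphin was added to BMP2, Dcn and Thy1 rose while Tcf21, Pdgfra and S100a4 fell, with 4.28% of all tested genes called higher and 4.44% lower, 8.73% in all. The medians of that comparison were 0.05 over the 10 genes and 0.000350 over all tested genes. Against PBS, cells given both agents had 5 of the 10 genes lower and 2 higher, with 11.5% and 9.38% of all tested genes called in those directions and 20.9% in all. The medians were -0.14 and 0.00694. The CPM ranges of the groups did not overlap for 8 of the 10 genes between BMP2 and PBS (55.9% of all tested genes), 7 between BMP2+DM and BMP2 (50.3%) and 7 between BMP2+DM and PBS (58.5%). These 3 comparisons share libraries in pairs and are not independent.

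**Figure D1:**
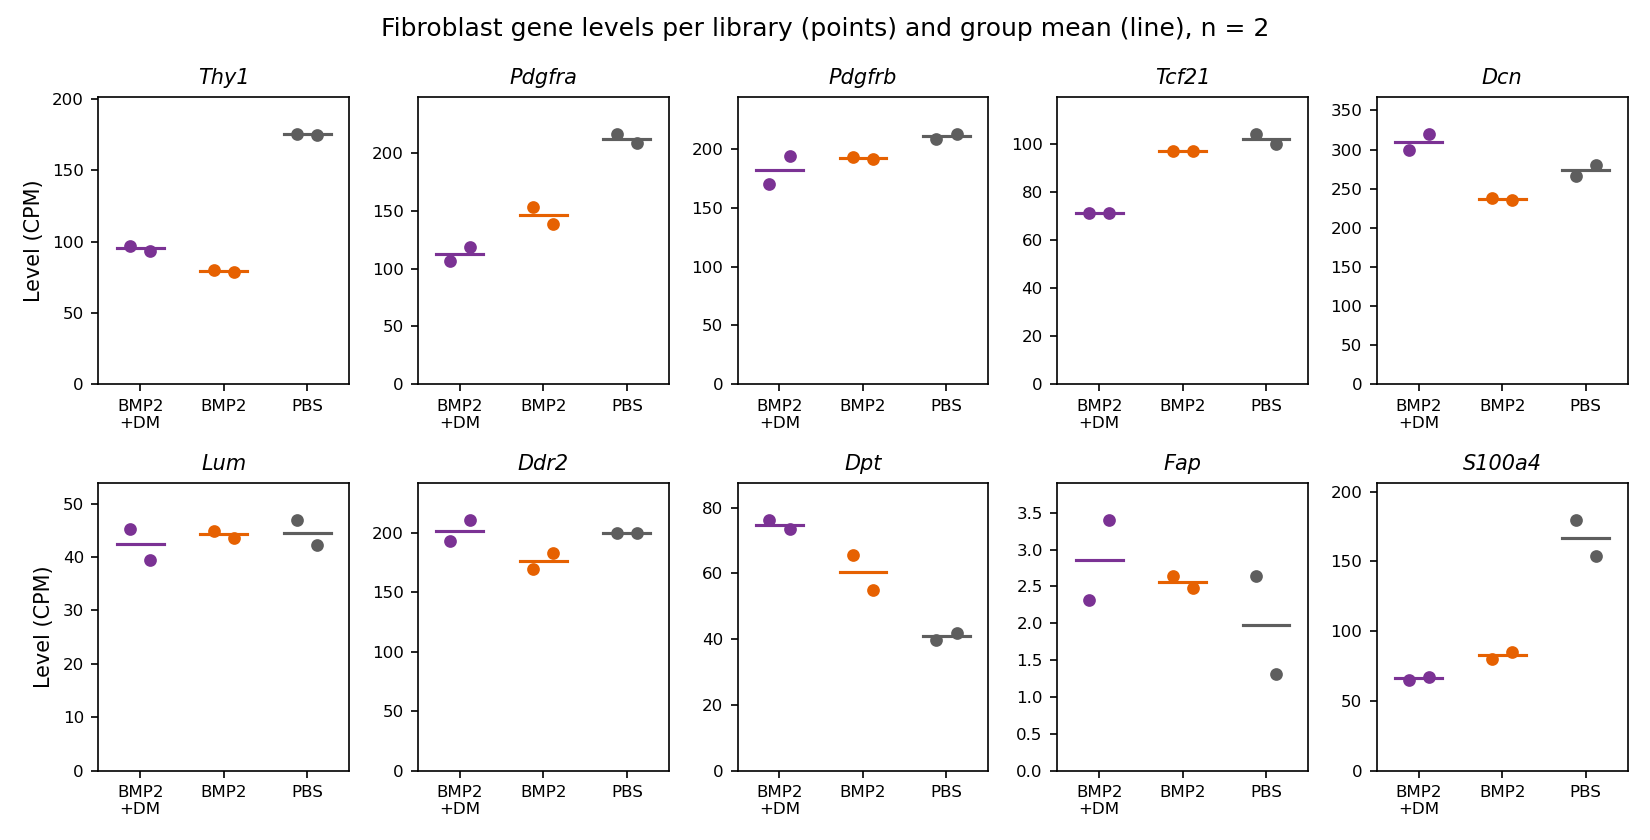
Level of each of the 10 fibroblast genes in CPM, with a point for each library and a line at the mean of the 2 libraries of a group, each vertical axis starting at 0. Thy1 and S100a4 stand far higher in PBS than in the other groups, Dpt is lowest in PBS, Tcf21 is lowest in BMP2+DM, and Lum and Fap overlap between groups.

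Thy1 encodes a glycolipid-anchored surface glycoprotein used to sort fibroblasts. It lies at 44043384 to 44048579 of chromosome 9 (plus strand, mm10). Its level was 80.1 and 79.1 CPM in BMP2 libraries, against 176 and 175 CPM in PBS libraries. This was the greatest fall of the 10 genes with BMP2, with replicates that nearly coincided and groups far apart. The log2 fold change was -1.14 ± 0.07 (SE), or 2.20-fold lower (edgeR adjusted p = 4.7e-09). With dorsomorphin added, the level was 97.0 and 93.6 CPM, above both BMP2 libraries and well below both PBS libraries. That step was 0.26 ± 0.08 on the log2 scale (edgeR adjusted p = 0.0393), and the call was lost whichever of the 6 libraries was left out (adjusted p from 0.0668 to 0.171), in DESeq2 (0.0720) and in limma-voom (0.0684). Against PBS, BMP2+DM cells were still 1.84-fold lower (edgeR adjusted p = 7.81e-08).

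Of the PDGF receptors, Pdgfra was called lower in both treatment steps, and Pdgfrb lay lower in both without a call in either. Pdgfra, the receptor tyrosine kinase that marks most cardiac fibroblasts, lies at 75152292 to 75198215 of chromosome 5 (plus strand, mm10). Its level was 107 and 119 CPM in BMP2+DM libraries, 154 and 139 CPM in BMP2 libraries, and 217 and 209 CPM in PBS libraries. The groups did not overlap, and each treatment step lay lower. The log2 fold change was -0.54 ± 0.07 for BMP2 against PBS (edgeR adjusted p = 4.04e-05) and -0.38 ± 0.08 for BMP2+DM against BMP2 (edgeR adjusted p = 0.00357). BMP2+DM against PBS gave -0.92 ± 0.07, or 1.89-fold lower (edgeR adjusted p = 6.35e-08). The dorsomorphin step was not called without BMP2 replicate 1 (-0.30, adjusted p = 0.0692). Of the exonic bases of Pdgfra, 6.21% lie within models on the opposite strand, whose reads may not be told apart from its own because the strand setting of the counting is not given.

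Pdgfrb, the PDGF receptor that fibroblasts share with pericytes, lies on chromosome 18 (61045150 to 61085061, plus strand, mm10). It had 171 and 194 CPM in BMP2+DM libraries, 194 and 192 CPM in BMP2 libraries, and 209 and 213 CPM in PBS libraries. Its BMP2+DM replicates enclosed the BMP2 values, and both treated groups lay under PBS. Neither step passed the test, at -0.13 ± 0.07 for BMP2 against PBS (95% interval -0.27 to 0.01) and -0.08 ± 0.07 for BMP2+DM against BMP2 (-0.22 to 0.06). The sum of both, BMP2+DM against PBS, was called at -0.21 ± 0.07 (edgeR adjusted p = 0.0314), and this call was lost without PBS replicate 1, PBS replicate 2 or BMP2+DM replicate 1 (-0.12, adjusted p = 0.295, without the last).

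Per kilobase of exon, Pdgfra stood at 0.342 and 0.334 of Pdgfrb in BMP2+DM libraries, 0.433 and 0.395 in BMP2 libraries, and 0.566 and 0.536 in PBS libraries. The ratio thus took a separate range in each group. The difference between the changes of the receptors was not tested.

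Ddr2 encodes a receptor tyrosine kinase that binds fibrillar collagen, at 169972307 to 170110762 of chromosome 1 (minus strand, mm10). It had 193 and 210 CPM in BMP2+DM libraries, 170 and 183 CPM in BMP2 libraries, and 199 and 200 CPM in PBS libraries. The BMP2 libraries were the lowest pair, and the BMP2+DM values spanned those of PBS. The changes did not pass the test, at -0.18 ± 0.06 for BMP2 against PBS (edgeR adjusted p = 0.0701) and 0.20 ± 0.07 for BMP2+DM against BMP2 (edgeR adjusted p = 0.0739). Without the count filter both passed (adjusted p = 0.0448 and 0.0387). Without BMP2+DM replicate 1 the second did too (0.25, adjusted p = 0.0497).

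Tcf21, the basic helix-loop-helix factor of the epicardium-derived fibroblast lineage, lies at 22817281 to 22820174 of chromosome 10 (minus strand, mm10). It had 71.4 and 71.5 CPM in BMP2+DM libraries, 97.3 and 97.3 CPM in BMP2 libraries, and 104 and 100 CPM in PBS libraries. BMP2 alone left it close to PBS, and the BMP2+DM libraries were lower than all the others. The BMP2 change was -0.07 ± 0.08 (95% interval -0.24 to 0.10, edgeR adjusted p = 0.625). BMP2+DM against BMP2 was -0.45 ± 0.08, or 1.36-fold lower (edgeR adjusted p = 0.00188), and BMP2+DM against PBS -0.52 ± 0.08 (edgeR adjusted p = 0.000153). The difference from BMP2 was called without any 1 library, but not without PBS 1 and BMP2 1 together (-0.45, adjusted p = 0.0804).

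**Figure D2:**
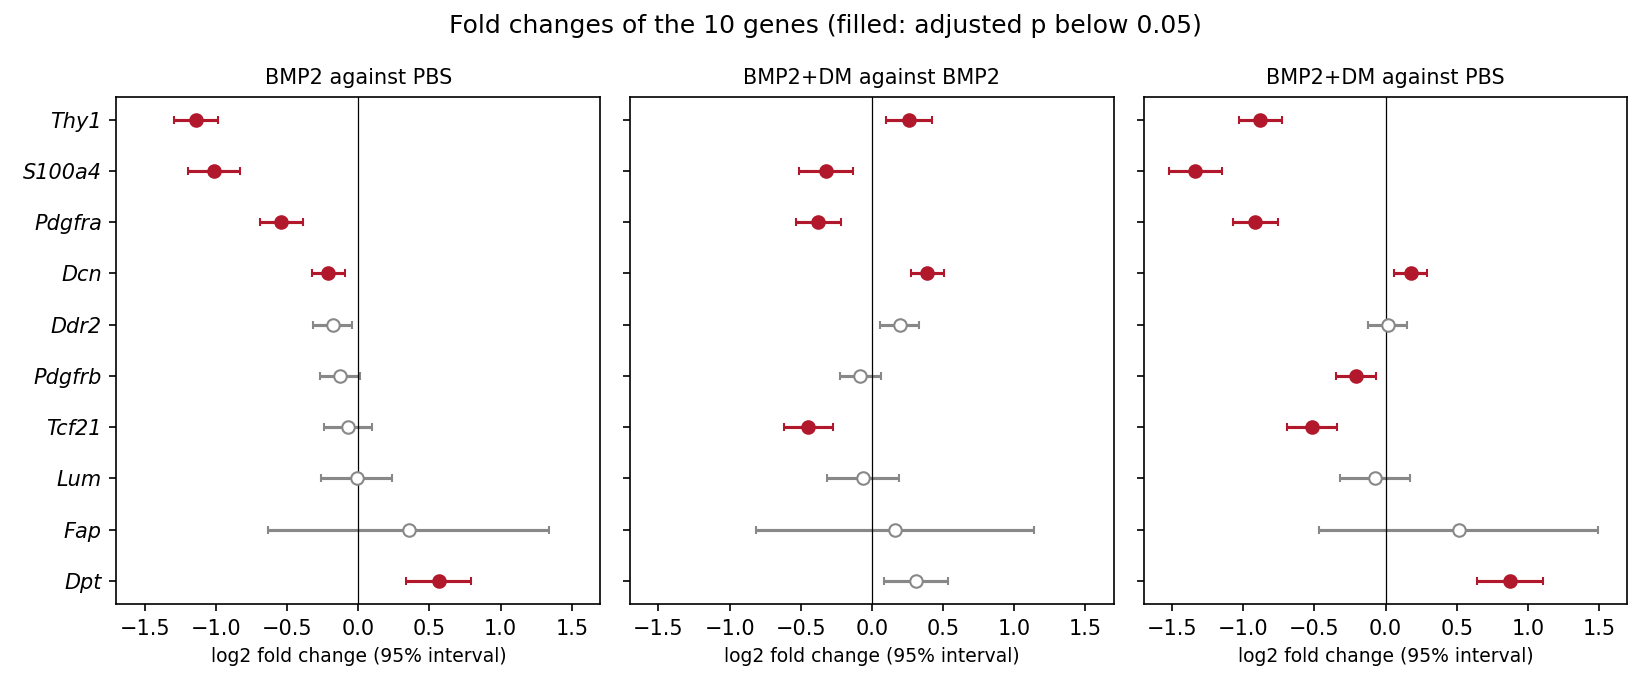
Log2 fold change of each of the 10 genes in the 3 comparisons, with unadjusted 95% intervals from the edgeR fit over 6 libraries, and filled points where the adjusted p was below 0.05. Thy1 and S100a4 lie near -1 for BMP2 against PBS, and for BMP2+DM against BMP2 the genes lie on both sides of 0.

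The 3 secreted matrix proteins did not move together. Dcn encodes decorin, a small leucine-rich proteoglycan that binds collagen and TGF-beta, at 97479609 to 97518143 of chromosome 10 (plus strand, mm10). It had 299 and 320 CPM in BMP2+DM libraries, 238 and 235 CPM in BMP2 libraries, and 267 and 281 CPM in PBS libraries. Its lowest level was thus with BMP2 and its highest with both agents, with no overlap between groups. The fall with BMP2 was -0.21 ± 0.06 (edgeR adjusted p = 0.0137), and the rise when dorsomorphin was added 0.39 ± 0.06 (edgeR adjusted p = 0.000183). BMP2+DM against PBS gave 0.18 ± 0.06 (edgeR adjusted p = 0.0287). The rise with dorsomorphin was called without any 1 of the 6 libraries. The fall with BMP2 was lost without PBS replicate 2 (adjusted p = 0.131), BMP2 replicate 1 (0.0818) or BMP2 replicate 2 (0.0940), or without PBS 1 and BMP2 1 together (0.166). The difference of BMP2+DM from PBS was lost without PBS replicate 1 (0.198) or BMP2+DM replicate 2 (0.217) and in DESeq2 (0.0568).

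Lum encodes lumican, a related proteoglycan whose gene is a neighbour of Dcn on the same strand (chromosome 10, 97565128 to 97572703, mm10). It had 45.4 and 39.4 CPM in BMP2+DM libraries, 45.0 and 43.6 CPM in BMP2 libraries, and 46.9 and 42.3 CPM in PBS libraries. The groups overlapped throughout. No comparison passed the test, with -0.01 ± 0.12 for BMP2 against PBS (95% interval -0.26 to 0.24), -0.06 ± 0.12 for BMP2+DM against BMP2 (-0.31 to 0.19) and -0.07 ± 0.12 for BMP2+DM against PBS (-0.32 to 0.17). Per kilobase of exon, Dcn stood at 2.76 and 3.40 times Lum in BMP2+DM libraries, 2.22 and 2.26 times in BMP2 libraries, and 2.38 and 2.78 times in PBS libraries.

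Dpt encodes dermatopontin, a small matrix protein that binds decorin and collagen, at 164796644 to 164824266 of chromosome 1 (plus strand, mm10). It had 76.1 and 73.5 CPM in BMP2+DM libraries, 65.7 and 54.9 CPM in BMP2 libraries, and 39.8 and 41.9 CPM in PBS libraries. It was the gene of the 10 that rose with BMP2, and the groups did not overlap. The rise with BMP2 was 0.56 ± 0.11, or 1.48-fold (edgeR adjusted p = 0.00140). It was 0.39 and not called (adjusted p = 0.217) when PBS 1 and BMP2 1, the libraries rich in ribosomal repeats, were left out. BMP2+DM lay a further 0.31 ± 0.11 higher, which did not pass the test (edgeR adjusted p = 0.0842), and BMP2+DM against PBS was 0.87 ± 0.11, or 1.83-fold (edgeR adjusted p = 1.1e-05). Per kilobase of exon, Dpt stood at 0.862 and 0.778 of Dcn in BMP2+DM libraries, 0.936 and 0.792 in BMP2 libraries, and 0.505 and 0.506 in PBS libraries. The treated libraries of either kind thus lay above both PBS libraries.

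**Figure D3:**
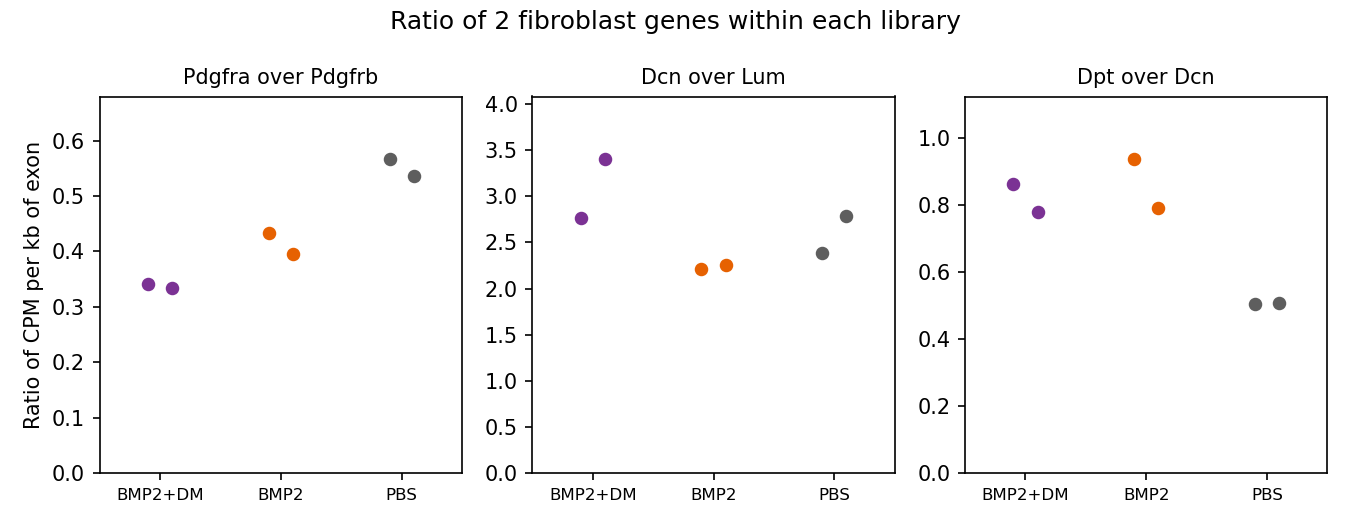
Ratio of CPM per kilobase of exon between 2 of the genes within each library, with a point for each library and axes starting at 0. Pdgfra over Pdgfrb runs from 0.334 in a BMP2+DM library to 0.566 in a PBS library, and Dpt over Dcn is near 0.505 in both PBS libraries and at least 0.778 in the others.

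Fap encodes a surface serine protease of activated fibroblasts, at 62500943 to 62574075 of chromosome 2 (minus strand, mm10). It had 24 and 35 counts in BMP2+DM libraries, 29 and 26 in BMP2 libraries, and 37 and 15 in PBS libraries, or 1.30 to 3.40 CPM. The PBS libraries enclosed both BMP2 values. No comparison passed the test, and the 95% interval of the log2 fold change for BMP2 against PBS ran from -0.63 to 1.34.

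S100a4 encodes a calcium-binding protein long called fibroblast-specific protein, which leukocytes also make, at 90603771 to 90606045 of chromosome 3 (plus strand, mm10). It had 64.9 and 67.1 CPM in BMP2+DM libraries, 80.3 and 84.9 CPM in BMP2 libraries, and 179 and 154 CPM in PBS libraries. Both treated groups were far below PBS. BMP2 against PBS gave -1.01 ± 0.09, or 2.02-fold lower (edgeR adjusted p = 1.74e-07), and BMP2+DM against PBS -1.34 ± 0.09, or 2.53-fold lower (edgeR adjusted p = 3.99e-09). The step from BMP2 to BMP2+DM was -0.32 ± 0.09 (edgeR adjusted p = 0.0329). That call was lost without any 1 of the 4 libraries compared (adjusted p from 0.0777 to 0.189) and in limma-voom (0.0726). Of the exonic bases of S100a4, 51.7% are shared with the same-strand model Gm42674, which the count files do not list.

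Merged annotated exons span 584 bases for S100a4, 5838 for Dcn and 10024 for Pdgfra. Which of these exons the cells used was not measured, so an order between genes on this scale may differ from that of transcript numbers. Per kilobase of merged exon, S100a4 had the highest level of the 10 genes in every group. It stood at 113 ± 2.64 CPM per kilobase in BMP2+DM, 141 ± 5.54 in BMP2 and 286 ± 30.7 in PBS (SD, n = 2 each). Fap had the lowest level, with 0.505 ± 0.134, 0.452 ± 0.0193 and 0.349 ± 0.167 in the same order. Between them the order changed with treatment. In BMP2+DM cells it ran Dcn (53.0), Dpt (43.4), Pdgfrb (33.3), Thy1 (31.8), Tcf21 (30.4), Ddr2 (21.8), Lum (17.3) and Pdgfra (11.2). In BMP2 cells it ran Tcf21 (41.4), Dcn (40.5), Pdgfrb (35.2), Dpt (35.0), Thy1 (26.6), Ddr2 (19.0), Lum (18.1) and Pdgfra (14.6). In PBS cells it ran Thy1 (58.5), Dcn (46.9), Tcf21 (43.5), Pdgfrb (38.5), Dpt (23.7), Ddr2 (21.5), Pdgfra (21.2) and Lum (18.2). Neighbours whose replicates overlapped were Pdgfrb and Thy1 in BMP2+DM, Pdgfrb and Dpt as well as Ddr2 and Lum in BMP2, and Ddr2 and Pdgfra in PBS. On this scale Thy1 thus came second in PBS cells and after Dcn, Tcf21, Pdgfrb and Dpt in BMP2 cells.

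Likeness of profile was measured as the root-mean-square difference of log2 CPM over the 6 libraries, after centring each gene, among 11094 genes with a mean log2 CPM of at least 2. Nearest to Thy1 were Nppa (0.0370), St6gal1 (0.0525) and Lmod2 (0.0571), set against a spread of Thy1 itself of 0.487. The nearest of the other fibroblast genes was S100a4 (0.260). Nearest to Pdgfra were Tagln (0.0540), Itgb5 (0.0560) and Sdc3 (0.0573), with its own spread at 0.381, and of the fibroblast genes Tcf21 (0.216). S100a4 lay nearest to Rassf6 (0.0884), Ctla2a (0.0995) and Akap12 (0.126), and Dpt to Rsad1 (0.0429), Hs1bp3 (0.0647) and Fabp3 (0.0775). Dcn lay nearest to St5, Chmp2a and Tuba1a (0.0304 to 0.0326), Tcf21 to Il1r1, Apobec3 and Cdr2l (0.0474 to 0.0493), and Pdgfrb to Zfp970, Scoc and D11Wsu47e (0.0197 to 0.0301). The nearest other gene of the 10 ranked 92 of the 11094 for S100a4, 195 for Dcn, 280 for Thy1 and 475 for Pdgfra. It ranked 1069 for Tcf21, 2062 for Pdgfrb and 4101 for Dpt. For none of these 7 genes was another of the 10 among its 3 nearest. With so few of the 10 among 11094 genes, that absence cannot show whether the 10 share profiles.

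Other stromal genes mostly lay lower after BMP2. Of 25 such genes 22 were tested, and with BMP2 11 fell and 0 rose against PBS (median log2 fold change -0.37). Of all tested genes, 9.29% were called lower and 6.55% higher in that comparison, and 4.44% and 4.28% with dorsomorphin. These shares also stand beside the lists that follow. Fbln2, which encodes the elastic-fibre protein fibulin-2, had 862 ± 30.7 CPM with BMP2 and 1522 ± 17.2 CPM with PBS (-0.82 ± 0.05), and Loxl1, an elastin cross-linking enzyme gene, changed by -0.58 ± 0.06. With dorsomorphin added, 3 rose and 3 fell of the 22 (median 0.01). Fbln2 fell further (-0.76 ± 0.05), as did the homeobox gene Meox1 (-1.63 ± 0.28), whereas Fbln1 rose (0.79 ± 0.12). Against PBS, 13 were lower and 3 higher in BMP2+DM cells (median -0.21), with 11.5% and 9.38% of all tested genes called in those directions.

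Dcn and Lum belong to the small leucine-rich proteoglycans, of which 12 others were listed and 7 tested. All 7 tested fell with BMP2 (median -0.78), among them Prelp (-0.78 ± 0.10), Ogn (-0.57 ± 0.08) and Bgn (-0.26 ± 0.05), the last encoding biglycan. With dorsomorphin added, Prelp (1.40 ± 0.10) and Ogn (0.51 ± 0.08) rose and Bgn fell (-0.42 ± 0.05), 2 up and 1 down of 7 (median 0.42). Of 7 fibrillar collagen chains, 5 fell and 1 rose with BMP2 (median -0.22), and 4 fell and 1 rose with dorsomorphin (median -0.22). The chain that rose in both steps was Col3a1, at 0.54 ± 0.05 and 0.52 ± 0.05, while Col1a1 fell by 0.58 ± 0.04 on the log2 scale with dorsomorphin. Of the 9 tested myofibroblast genes, 7 fell and 2 rose with BMP2 (median -0.51), and 7 fell and 2 rose with dorsomorphin (median -0.56). Cthrc1, a secreted protein of activated fibroblasts, rose with BMP2 (1.92 ± 0.11) and fell with dorsomorphin (-2.27 ± 0.12). Postn likewise rose with BMP2 (0.69 ± 0.05) and fell with dorsomorphin (-0.54 ± 0.05). Acta2, smooth muscle actin, fell with BMP2 (-0.84 ± 0.05) and rose with dorsomorphin (0.18 ± 0.05). With both agents it stayed below PBS (-0.66 ± 0.05). Lox also fell and then rose (-0.39 ± 0.06 and 0.20 ± 0.06). The rest of the tested list fell in both steps. These were Ccn2 (-0.85 ± 0.05 and -0.56 ± 0.05), Ltbp2 (-1.66 ± 0.11 and -1.45 ± 0.13), Tnc (-0.37 ± 0.05 and -1.05 ± 0.06), Cnn1 (-1.46 ± 0.19 and -1.04 ± 0.23) and Tagln (-0.51 ± 0.06 and -0.30 ± 0.06).

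Genes related to the receptors, to Tcf21, to Fap and to S100a4 were counted likewise. Of all tested genes, 15.8% were called in either direction for BMP2 against PBS and 8.73% for BMP2+DM against BMP2. A single call in a list of 5 or 7 genes is not far from those shares. Of 5 tested genes, the PDGF ligands Pdgfa, Pdgfb, Pdgfc and Pdgfd and the receptor-like gene Pdgfrl, which encodes no ligand, Pdgfa, a ligand of Pdgfra, fell with BMP2 (-0.54 ± 0.12, edgeR adjusted p = 0.00315), and Pdgfb, a ligand of both receptors, fell with dorsomorphin (-0.94 ± 0.19, edgeR adjusted p = 0.00322). No other of the 5 was called in those comparisons (medians over all 5 -0.10 and -0.40). Of 7 other collagen receptor genes, 4 fell with BMP2 (median -0.35), among them Mrc2 (-0.48 ± 0.06) and Itga11 (-2.52 ± 0.49), an integrin chain of fibroblasts at 1.30 ± 0.0868 CPM with BMP2 and 7.52 ± 1.54 CPM with PBS. With dorsomorphin Ddr1, the relative of Ddr2, fell (-0.50 ± 0.06), the single call of the 7 (median 2.32e-05). Of 5 tested relatives and partners of Tcf21, Tcf4 fell with BMP2 (-0.34 ± 0.11, edgeR adjusted p = 0.0446) and 0 were called with dorsomorphin by edgeR (1 at an unadjusted p below 0.05, medians -0.19 and 0.02). Of 4 tested relatives of Fap, 0 were called with BMP2 by edgeR (0 at an unadjusted p below 0.05, median 0.01), and Dpp4, a protease of the same family, rose with dorsomorphin to 13.7 ± 2.02 CPM, against 4.34 ± 0.873 CPM with BMP2 (1.66 ± 0.25). Of 6 tested S100 genes, 3 fell with BMP2 (median -0.32), S100a6 (-0.81 ± 0.10), S100a11 (-0.39 ± 0.06) and S100a13 (-0.59 ± 0.17), and 0 were called with dorsomorphin by edgeR (0 at an unadjusted p below 0.05, median 0.03).

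**Figure D4:**
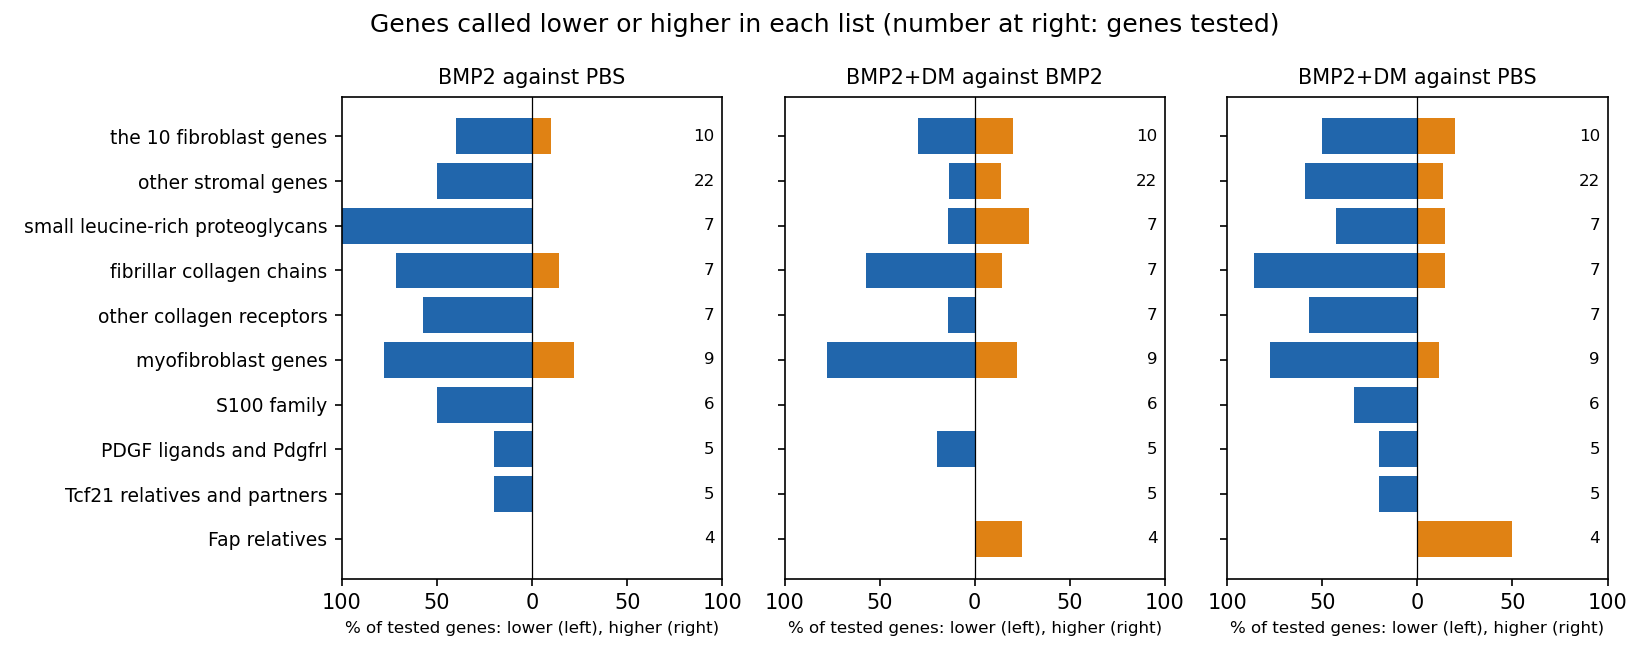
Share of the tested genes of each list that was called lower (left of 0) or higher (right of 0) by the edgeR test in the 3 comparisons, with the number tested at the right edge. For BMP2 against PBS, calls in most lists lie to the left, with 7 of 7 small leucine-rich proteoglycans lower and 0 of 4 relatives of Fap called. Over all tested genes, not drawn, 9.29% were lower and 6.55% higher for BMP2 against PBS. The shares were 4.44% and 4.28% for BMP2+DM against BMP2, and 11.5% and 9.38% for BMP2+DM against PBS.

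Markers of other cells moved beside the fibroblast genes. The shares of all tested genes called were 9.29% lower and 6.55% higher for BMP2 against PBS, and 4.44% and 4.28% with dorsomorphin. The summed level of 9 smooth muscle and pericyte markers, cells that also make Pdgfrb, was 2122 and 2204 CPM in BMP2+DM libraries, 2118 and 2068 CPM in BMP2 libraries, and 3419 and 3363 CPM in PBS libraries, with 5 of 9 lower and 2 higher for BMP2 against PBS. Most of that sum came from Acta2 and Tagln, which are also in the myofibroblast list. The other 7 markers summed to 434 and 439 CPM in BMP2+DM libraries, 423 and 434 CPM in BMP2 libraries, and 587 and 592 CPM in PBS libraries. Of these 7, 3 were lower and 2 higher for BMP2 against PBS. The 3 lower were Mcam (-0.93 ± 0.08), Cspg4 (-0.70 ± 0.07) and Notch3 (-0.37 ± 0.10). The 2 higher were the channel subunit genes Abcc9 (0.28 ± 0.08) and Kcnj8 (2.25 ± 0.55), named after their values were seen. Kcnj8 had low levels, at 3.47 ± 1.30 CPM with BMP2 and 0.736 ± 0.435 CPM with PBS. When dorsomorphin was added to BMP2, 3 of the 9 smooth muscle and pericyte markers rose and 2 fell. The 7 epicardial and mesothelial markers summed to 96.4 to 100 CPM in BMP2+DM, 90.2 to 90.9 CPM in BMP2 and 158 CPM in each PBS library. For BMP2 against PBS 5 of 7 were lower, among them Krt18 (-1.61 ± 0.15) and Upk3b (-2.34 ± 0.29). The similar sums of the treated groups hid opposite changes with dorsomorphin. In that step 3 of 7 rose, among them Msln (1.44 ± 0.20) and Upk3b (1.44 ± 0.31), and Lrrn4 fell (-1.12 ± 0.13). The 7 leukocyte markers, of which 4 were tested, summed to 60.6 to 64.4 CPM in BMP2+DM, 66.4 to 69.0 CPM in BMP2 and 87.9 to 91.0 CPM in PBS. Lyz2 alone was called for BMP2 against PBS (-0.64 ± 0.11), and most of the fall in the sum was its own. It had 37.5 ± 3.65 CPM with BMP2 and 58.5 ± 2.40 CPM with PBS. Of the 4 tested, 2 had a log2 fold change above 0 in that comparison, among them Csf1r (0.16 ± 0.16), and neither was called. Adgre1 lay lower without passing the test (-0.92 ± 0.32, edgeR adjusted p = 0.0612). With dorsomorphin Csf1r fell (-0.63 ± 0.17). For BMP2+DM against PBS 2 of the 4 were lower and 0 higher. Cardiomyocyte markers were also lower with BMP2 in 9 of 10 (24147 to 24395 CPM with BMP2, against 29631 to 30179 CPM with PBS), and 4 of 10 rose with dorsomorphin. Their sum was 26269.6 and 26464.5 CPM in BMP2+DM libraries, still below PBS, with 7 of 10 lower and 0 higher for BMP2+DM against PBS. The 8 endothelial markers summed to 164 to 177 CPM in BMP2+DM, 237 to 249 CPM in BMP2 and 260 to 266 CPM in PBS, with 1 higher and 1 lower for BMP2 against PBS and 3 lower with dorsomorphin. Schwann cell markers (2.07 to 3.77 CPM) and erythroid markers (0.174 to 1.21 CPM) were near 0 in every library. The part of these cells in the changes of the fibroblast genes was not tested.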

How the data were processed

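The values deposited by the authors are raw counts, whole numbers for each gene symbol in each library. The submitters' processing notes name mm10 as the build and STAR, HTSeq, Trimmomatic, FastQC and DESeq2 as tools, while tool versions, gene annotation and strand setting are left unstated there. The 5 summary lines of each file, 53.8% to 54.2% of its total and mostly reads without a feature (49.7% to 50.1%), were left out.

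All 6 libraries were fitted together by group with no covariate (3 residual degrees of freedom), with edgeR 4.0.16 (R 4.3.3), TMM scaling, filterByExpr (minimum count 10, minimum total 15) and the quasi-likelihood F test, Benjamini-Hochberg adjusted over 14378 genes at 0.05. Standard errors were obtained as the size of the log2 fold change over root F. CPM uses TMM-adjusted library sizes, with SD over 2 libraries. Replicates of a group differed by more than sampling noise (chi-square per degree of freedom 3.58 to 4.27 without the ribosomal-repeat models). Gene positions and merged exon lengths come from GENCODE vM21. DESeq2 1.42.0 and limma 3.58.1 were alternatives.

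The 10 genes and all lists were chosen with earlier results of these data known. Of each list, at most 3 genes, those with the smallest p in the comparison at hand, were named with their changes. Abcc9, Kcnj8, Notch3, Postn, Lox and the changes of Acta2 other than that with BMP2 were added after their values were seen. So were the myofibroblast genes that fell in both steps.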

Additional observations from a re-analysis of the deposited data

How the results depend on the processing

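All calls of the 10 genes were kept under 3 other scalings (RLE, upper-quartile, no ribosomal-repeat models), none of which moved the median of all genes by more than 0.00534 on the log2 scale. The replicate numbers did not pair the libraries (correlations of deviations -0.0376 to 0.0248). With the replicate number as a block, 4 genes fell and 1 rose for BMP2 against PBS, 3 fell and 2 rose for BMP2+DM against BMP2, and 5 fell and 2 rose for BMP2+DM against PBS, as without it, and no call of the 10 changed.

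Counts of called genes moved as follows. Against a minimum fold of 1.5, 2 fell and 0 rose for BMP2 against PBS, 0 and 0 for BMP2+DM against BMP2, and 3 and 0 for BMP2+DM against PBS. For BMP2+DM against BMP2, 1 rose in DESeq2, in limma-voom and with the 4 libraries compared alone, and for BMP2+DM against PBS 1 rose in DESeq2. Without PBS 1 and BMP2 1 together, 0 rose for BMP2 against PBS, 1 rose and 0 fell for BMP2+DM against BMP2, and 1 rose for BMP2+DM against PBS. Leaving out 1 library gave 1 rise and 3 to 4 falls for BMP2 against PBS, 1 to 2 rises and 1 to 3 falls for BMP2+DM against BMP2, and 1 to 2 rises and 4 to 5 falls for BMP2+DM against PBS. A group left with 1 library was assumed to vary like the others. Over all genes, the calls in the comparisons in the same order were 2277, 1255 and 3007, against 574, 313 and 1388 without PBS 1 and BMP2 1, and 291, 98 and 424 at the minimum fold. Leaving out 1 library of the pair compared gave 1318 to 1472, 670 to 950 and 1827 to 2275 calls.

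The signs that turned belonged to values that passed no test. Over the fits without 1 library, the log2 fold change for BMP2 against PBS ran from -0.0823 (without PBS replicate 2) to 0.0662 (without PBS replicate 1) for Lum, with 0.00913 without BMP2 replicate 2, and from -0.0456 (without PBS replicate 2) to 0.964 (without PBS replicate 1) for Fap. For BMP2+DM against BMP2 it ran from -0.174 to 0.00642 for Pdgfrb, from -0.170 to 0.0373 for Lum and from -0.137 to 0.406 for Fap. For BMP2+DM against PBS it ran from -0.184 to 0.0241 for Lum, with 0.00285 without PBS replicate 1, and from -0.0460 to 0.0722 for Ddr2. Without PBS 1 and BMP2 1 together, Lum was 0.0437 for BMP2 against PBS and 0.00252 for BMP2+DM against PBS. The causes were not tested. Fap had the fewest counts of the 10 genes, at most 37 in a library, and its PBS replicates had 37 and 15. How far depth and how far replicate spread set its interval was not tested.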
